A study of Arabidopsis thaliana with 6 samples.

Results

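The JAZ (JASMONATE ZIM-DOMAIN) proteins are the repressors of the jasmonate pathway, the hormone pathway through which plants answer wounding and herbivores and restrain leaf growth. They hold transcription factors such as MYC2 silent by recruiting corepressors, partly through the adaptor NINJA. When the hormone jasmonoyl-isoleucine accumulates, the F-box protein COI1 binds the JAZ proteins and marks them for destruction. The JAZ genes are themselves among the genes that MYC2 and jasmonate switch on, so their transcripts usually climb with jasmonate signalling and replace the repressor. Transcripts of 10 JAZ genes (JAZ1, JAZ2, JAZ3, JAZ5, JAZ6, JAZ7, JAZ8, JAZ9, JAZ10 and JAZ12) were followed here. They were chosen by gene locus from the 21428 probe sets of the deposited table, and all 10 were present.

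The measurements came from 6 Affymetrix ATH1 arrays of total RNA from the first pair of leaves of Arabidopsis thaliana, accession Columbia-0. Of these, 3 were from AN3-GR plants, which carry the growth coactivator AN3 fused to the glucocorticoid receptor (GR) domain, and 3 from wild type plants. Both genotypes had grown in vitro for 8 days after stratification in days of 16 h light and 8 h dark, and both then received 5 µM dexamethasone for 8 h, the steroid that activates a GR fusion. The promoter of the fusion and the number of transgenic lines are not given in the sources used here, and arrays without dexamethasone were not analysed here, so activation of the fusion and a standing difference between the lines cannot be told apart. In whole leaves, fewer cells of a type and less RNA per cell also cannot be told apart.

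The AN3 transcript, the check of the labels, was 8.26-fold higher in AN3-GR, at 10.37 ± 0.31 against 7.33 ± 0.32 (log2 expression value, SD, n = 3 each; adjusted p = 0.000303 from limma after Benjamini-Hochberg adjustment). The leaf carbonic anhydrase gene CA1, the 1 of 3 leaf markers measured, had a strong signal on all arrays, between 12.78 and 13.37. Summed log2 values of the 4 root markers were 17.9 to 18.6 in AN3-GR and 17.9 to 19.2 in wild type, and those of the 3 shoot meristem markers were 11.11 to 11.64 and 11.04 to 11.97. Array medians ranged from 6.22 to 6.32. The lower quartiles of the arrays ranged from 3.99 to 4.05 in AN3-GR and from 3.99 to 4.21 in wild type. The number of arrays, 3 per genotype, limits the precision of every value.

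JAZ transcripts tended to lie lower in AN3-GR leaves, but none passed the test in the unpaired fit. Of the 10 genes, 8 had a negative log2 change, with a median of −0.32 over the family, while the median over all probe sets was −0.019 and 54.2% of them were negative. A gene was called at an adjusted p under 0.05 in limma, after Benjamini-Hochberg adjustment over all probe sets, and 0 of the 10 were called, against 0.789% of all probe sets. At an unadjusted p under 0.05 in the same limma fit, 6 were lower and 0 higher, against a background of 7.86% lower. JAZ6 (adjusted p = 0.0502) and JAZ1 (adjusted p = 0.0511) missed the threshold narrowly in limma. With the replicate number as a block in the fit, 3 of the 10 were called, all lower, namely JAZ1, JAZ6 and JAZ5, where 6.63% of all probe sets were called, 3.03% lower and 3.59% higher. In 4 genes (JAZ1, JAZ5, JAZ6 and JAZ9) every AN3-GR array lay below every wild type array, against 9.4% of all probe sets.

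**Figure D1:**
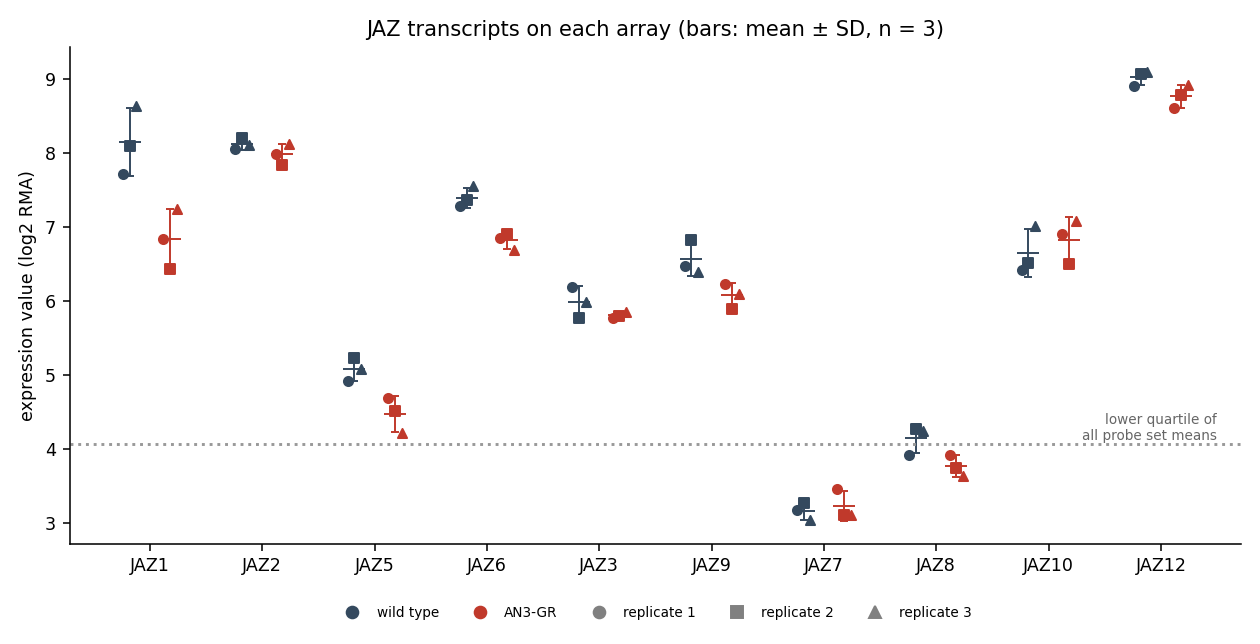
Expression values (log2 RMA) of the 10 JAZ genes on each array, with wild type in dark blue and AN3-GR in red, marker shapes for the replicate number, and bars for the mean ± SD of 3 arrays. The groups are apart for JAZ1, JAZ5, JAZ6 and JAZ9 and overlap for the other genes. JAZ7 lies under the dotted lower quartile of all probe set means, 4.06, in both genotypes.

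JAZ1 (AT1G19180_at), one of the best studied repressors and a partner of MYC2 and of the cold regulator ICE1, showed the largest difference of the family. Identifiers in brackets are the probe set names of the deposited table, the gene locus with a suffix. Its values were 6.83, 6.43 and 7.25 on AN3-GR replicates 1 to 3 and 7.72, 8.09 and 8.64 on the wild type replicates. All 3 AN3-GR arrays were below the lowest wild type array, and replicate 3 was the highest array within each genotype. The mean was 6.84 ± 0.41 in AN3-GR against 8.15 ± 0.46 in wild type (SD, n = 3 each), which is 2.48-fold lower in AN3-GR. The log2 change was −1.31 (SE 0.25, 95% confidence interval −1.88 to −0.74; adjusted p = 0.0511 from limma after Benjamini-Hochberg adjustment, and adjusted p = 0.0185 with the replicate block). Falls of at least 1 on this scale were seen in 0.149% of all probe sets.

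The spread of JAZ1 within a genotype was also large. Its pooled SD of 0.44 was higher than that of 99.2% of probe sets, against a median of 0.14. Without wild type replicate 3, the array with the highest JAZ1 value, the change was −1.07 and passed in limma (adjusted p = 0.0390). Without any other single array the change lay between −1.11 and −1.53 and did not pass, with adjusted p from 0.0637 to 0.239. Differences between arrays of the same number were −0.88, −1.66 and −1.39.

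JAZ2 (AT1G74950_at), which the gene table pairs with JAZ1 as TIFY10B and TIFY10A and which is known for its role in stomata, did not follow JAZ1. Its values were 7.99, 7.84 and 8.13 in AN3-GR against 8.05, 8.21 and 8.11 in wild type. The groups overlapped, and its log2 change of −0.14 did not pass (95% confidence interval −0.38 to 0.098; limma, adjusted p = 0.517). It was −0.066 without AN3-GR replicate 2 and −0.21 without AN3-GR replicate 3. The intervals of JAZ1 and JAZ2 do not overlap, although the difference between the 2 genes was not tested.

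JAZ5 (AT1G17380_at) and JAZ6 (AT1G72450_at), named TIFY11A and TIFY11B in the gene table and known as repressors that wounding and jasmonate induce, had changes of like size. JAZ6 had values of 6.85, 6.91 and 6.70 in AN3-GR against 7.29, 7.36 and 7.55 in wild type. Its 3 AN3-GR arrays stayed within 0.21 of each other and below all wild type arrays. The means were 6.82 ± 0.11 and 7.40 ± 0.14, a log2 change of −0.58 (SE 0.11, 95% confidence interval −0.82 to −0.34; adjusted p = 0.0502 from limma after Benjamini-Hochberg adjustment, and adjusted p = 0.0329 with the replicate block). Without wild type replicate 3 it was −0.51 and passed in limma (adjusted p = 0.0437), and without any other single array it did not pass (0.0795 to 0.232).

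JAZ5 had a weaker signal, with values of 4.68, 4.51 and 4.21 in AN3-GR against 4.91, 5.23 and 5.08 in wild type. The groups did not overlap, though the arrays of replicate 1 lay close, with a difference of −0.23. The log2 change was −0.61 (SE 0.14, 95% confidence interval −0.92 to −0.29; adjusted p = 0.0771 from limma after Benjamini-Hochberg adjustment, and adjusted p = 0.0458 with the replicate block). Without single arrays it lay between −0.48 and −0.71 and was called in none of those fits (lowest adjusted p = 0.0668). With quantile normalization it was −0.53 (limma, adjusted p = 0.106).

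**Figure D2:**
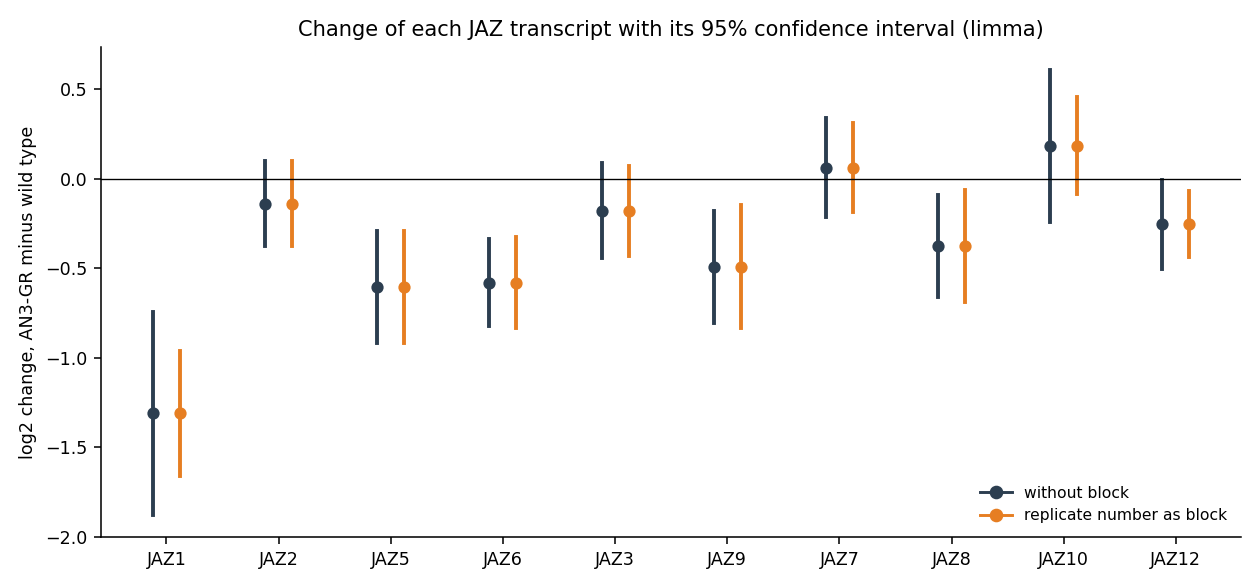
Log2 change of each JAZ gene, AN3-GR minus wild type, with its 95% confidence interval from limma, without the block (dark) and with the replicate number as a block (orange). JAZ1 lies lowest at −1.31. The intervals of JAZ2, JAZ3, JAZ7 and JAZ10 span 0 in both fits.

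JAZ9 and JAZ3 differed in how far their groups separated. JAZ9 (AT1G70700_at), a repressor that also binds the DELLA growth repressor RGA, had values of 6.23, 5.90 and 6.09 in AN3-GR against 6.47, 6.83 and 6.40 in wild type. The groups did not overlap, but the gap between AN3-GR replicate 1 and wild type replicate 3 was small beside the range of 0.43 among the wild type arrays. The log2 change was −0.49 (SE 0.14, 95% confidence interval −0.81 to −0.18), and it did not pass in limma without the block (adjusted p = 0.121) or with it (adjusted p = 0.0914).

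JAZ3 (AT3G17860_at), in which a truncated form gives the jasmonate-insensitive mutant jai3, had values of 5.77, 5.80 and 5.85 in AN3-GR against 6.20, 5.78 and 5.99 in wild type. The AN3-GR arrays were close together and wild type replicate 2 lay among them. The log2 change of −0.18 did not pass (95% confidence interval −0.45 to 0.085; limma, adjusted p = 0.451), and it was −0.076 without wild type replicate 1 and −0.29 without wild type replicate 2. JAZ4, measured but not among the 10 genes and looked at after its values were seen, had means of 3.85 in AN3-GR against 3.86 in wild type, both below the lower quartile of probe set means, 4.06.

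JAZ7 (AT2G34600_at) and JAZ8 (AT1G30135_at) lack the usual degron through which COI1 grips a JAZ protein, and recruit corepressors through a motif of their own. JAZ8 had values of 3.92, 3.74 and 3.63 in AN3-GR against 3.91, 4.26 and 4.24 in wild type. AN3-GR replicate 1 and wild type replicate 1 were nearly equal, so the groups overlapped. The log2 change of −0.38 (SE 0.13, 95% confidence interval −0.66 to −0.091) did not pass in limma (adjusted p = 0.170). Its size is uncertain because the signal lay near or below the lower quartile. With quantile normalization the change was −0.28 (limma, adjusted p = 0.362). JAZ7 had the weakest signal of the 10, with values of 3.45, 3.10 and 3.11 in AN3-GR against 3.18, 3.27 and 3.03 in wild type. Its groups overlapped fully, with a change of 0.061 (95% confidence interval −0.22 to 0.34; limma, adjusted p = 0.826) that turned negative when AN3-GR replicate 1 (−0.055) or wild type replicate 3 (−0.0021) was left out, and at this signal a difference may not be detectable.

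JAZ10 (AT5G13220_at), a feedback repressor with splice forms that resist destruction, was the member with the most positive change. Its values were 6.91, 6.50 and 7.08 in AN3-GR against 6.42, 6.51 and 7.02 in wild type. Replicate 3 was highest in both genotypes, at 7.08 and 7.02, and the groups overlapped. The change was 0.18 (SE 0.19, 95% confidence interval −0.24 to 0.61; limma, adjusted p = 0.643), and the interval does not reach the change of JAZ1. Leaving out AN3-GR replicate 3 moved it to 0.056, and leaving out wild type replicate 3 moved it to 0.37. Its pooled SD, 0.31, was higher than that of 96.2% of probe sets, and the probe set gives 1 value for all splice forms.

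JAZ12 (AT5G20900_at), which is also controlled by the ubiquitin ligase KEG, had a strong and even signal. Its values were 8.61, 8.79 and 8.92 in AN3-GR against 8.91, 9.07 and 9.10 in wild type. AN3-GR replicate 3 overlapped wild type replicate 1, yet each AN3-GR array was below the wild type array of the same number, with differences of −0.30, −0.28 and −0.18. The log2 change of −0.25 (SE 0.11, 95% confidence interval −0.50 to −0.0053) did not pass in limma, with an adjusted p of 0.270, or of 0.102 with the replicate block.

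Arrays of the same number were set against each other because the labels number the replicates 1 to 3 in both genotypes and same-numbered arrays deviated together. In pair 1, 7 of the 10 JAZ genes were lower in AN3-GR, with a median difference of −0.23, where 51.9% of all probe sets were lower. In pair 2, 9 were lower with a median of −0.41, against 54.7% of all probe sets, and in pair 3, 7 were lower with a median of −0.24, against 45.3%. JAZ1, JAZ5, JAZ6, JAZ9 and JAZ12 were lower in all 3 pairs, which is 5 of 10, against 23.6% of all probe sets. The lowest value of a gene fell on an AN3-GR array for 8 members and the highest on a wild type array for 8. The shares of all probe sets for these counts were not computed, so no conclusion about the family is drawn from them.

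**Figure D3:**
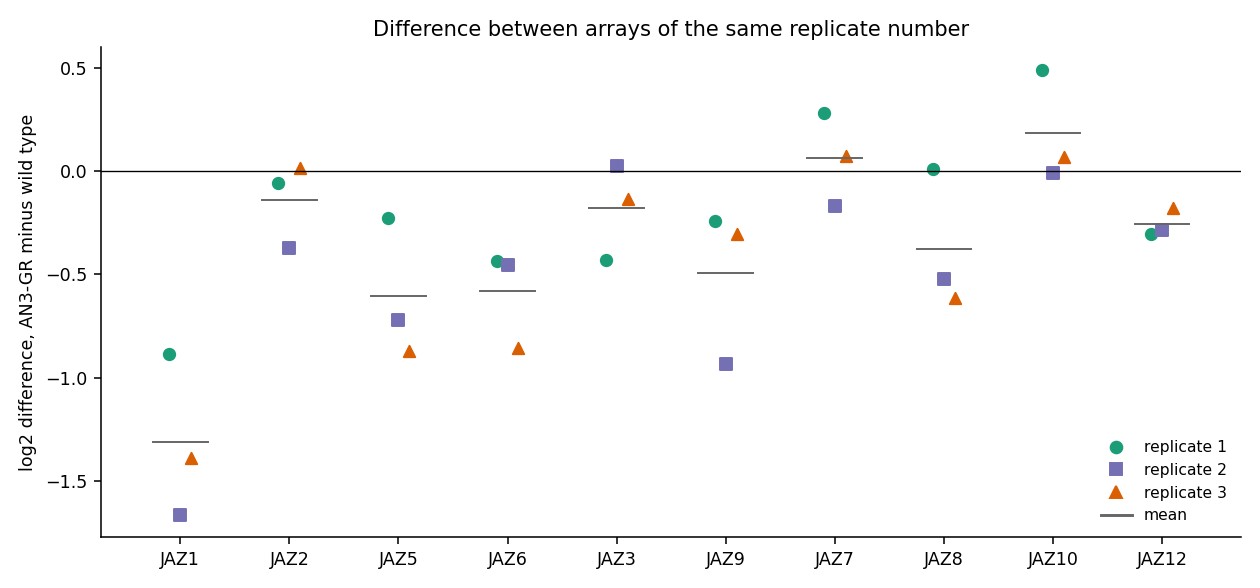
Difference in log2 expression value between the AN3-GR and the wild type array of the same replicate number for each JAZ gene, with the mean as a grey line. All 3 differences are below 0 for JAZ1, JAZ5, JAZ6, JAZ9 and JAZ12. JAZ10 spans −0.0091 to 0.49.

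Other genes of proteins with the TIFY domain did not pass the test. Of 9 such loci listed beside the 10 genes, 6 were measured and 0 were called, against 0.789% of all probe sets. Their changes lay between −0.065 and 0.23, around a median of 0.063. PPD2 (PEAPOD 2), a TIFY repressor that limits leaf cell division and does not belong to the jasmonate pathway proper, had means of 7.18 ± 0.10 in AN3-GR against 6.95 ± 0.17 in wild type. Its change of 0.23 did not pass (95% confidence interval −0.022 to 0.49; limma, adjusted p = 0.319). The GATA-type factors ZML1 and ZML2 had changes of 0.12 and 0.073. PPD1 and JAZ11 were not analysed here.

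Transcripts of the proteins that act directly on the JAZ repressors did not pass the test. COI1, the receptor subunit that recognises them, had means of 6.33 ± 0.05 in AN3-GR against 6.22 ± 0.14 in wild type, a change of 0.11 (95% confidence interval −0.12 to 0.34; limma, adjusted p = 0.611). Among the other subunits of its ubiquitin ligase CUL1 was at 0.21, RBX1 at 0.19, ASK1 at 0.13 and ASK2 at −0.020. Of the 5 genes 0 were called, where 0.789% of all probe sets were. NINJA, the adaptor between JAZ proteins and TOPLESS, was at 8.63, 8.47 and 8.44 in AN3-GR against 8.29, 8.32 and 8.29 in wild type. These groups did not overlap, and the change of 0.21 did not pass in limma (adjusted p = 0.274). Every AN3-GR array was above every wild type array in 12.8% of all probe sets. The same was seen in 3 of the 5 receptor complex genes and, with NINJA, in 2 of the 6 corepressor genes. In the corepressor list 0 of 6 were called, against 0.789% of all probe sets, with HDA6, a histone deacetylase, at 0.13. KIX8 (AT3G24150), at 0.16, was kept in this list, and a link between it and JAZ proteins was not tested here.

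Of 13 measured transcription factors that JAZ proteins bind, 0 were called, against 0.789% of all probe sets, and the median change was −0.020. MYC2, the main target of JAZ repression, had values of 8.21, 8.18 and 8.31 in AN3-GR against 8.19, 8.62 and 8.53 in wild type. Wild type replicate 1 lay among the AN3-GR arrays, and the change of −0.21 did not pass (95% confidence interval −0.49 to 0.069; limma, adjusted p = 0.404). JAM1, a bHLH repressor that opposes MYC2, was at −0.30. PAP1, a MYB activator of anthocyanin synthesis, was at −0.83 and passed in limma only with the replicate block (adjusted p = 0.0185, against 0.147 without) and without wild type replicate 3 (change −1.05, adjusted p = 0.0467). Leaving out AN3-GR replicate 3 moved it to −0.55. GL1, a MYB factor of trichome initiation, was at 0.51 with wild type values of 5.55, 5.27 and 6.73. Without wild type replicate 3, its change was 0.95 and passed in limma (adjusted p = 0.0232). Without wild type replicate 1 or 2 it was 0.35 or 0.22 and did not pass (adjusted p = 0.700 and 0.808 in limma).

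Among genes of jasmonate synthesis 1 passed the test. Of 13 measured, 12 had negative changes, against 54.2% of all probe sets. The median over the list was −0.33, and 1 was called lower, where 0.229% of all probe sets were. This was the lipoxygenase gene LOX4, with values of 6.05, 6.24 and 6.20 in AN3-GR against 6.59, 6.98 and 6.94 in wild type. Its log2 change was −0.67 (SE 0.12; adjusted p = 0.0498 from limma after Benjamini-Hochberg adjustment). Without wild type replicate 3 the call held (0.0445), and without any other single array it did not: 0.256, 0.0872 and 0.110 without AN3-GR replicate 1, 2 and 3, and 0.0528 and 0.192 without wild type replicate 1 and 2.

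With the replicate block 5 of the 13 synthesis genes were called, all lower, where 3.03% of all probe sets were. Beside LOX4 these were LOX2, a chloroplast lipoxygenase of the wound response, at −1.11, OPCL1, which activates precursors in the peroxisome, at −0.50, AOS, the allene oxide synthase, at −0.46, and LOX3 at −0.40. Their adjusted p-values in limma with the block lay between 0.0189 for LOX4 and 0.0350 for LOX3. Single arrays weighed on some of these values: without AN3-GR replicate 3 the change was −0.60 for LOX2 and −0.29 for AOS. ACX1, an acyl-CoA oxidase, was the synthesis gene with a positive change, at 0.14.

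LOX3 and LOX4 each stand near a JAZ gene in the gene table. LOX3 and JAZ5 have 2 protein-coding genes between them on chromosome 1, and LOX4 and JAZ6 have 6 between them elsewhere on the same chromosome. In all 4 genes the AN3-GR arrays lay below the wild type arrays, with changes of −0.61 for JAZ5 and −0.40 for LOX3, and −0.58 for JAZ6 and −0.67 for LOX4. The same separation was seen in 9.4% of all probe sets, in 7 of the 13 measured synthesis genes and in 4 of the 10 JAZ genes. A relation to position was not tested. LOX3 values were 5.90, 6.24 and 6.22 in AN3-GR against 6.34, 6.66 and 6.56 in wild type, a narrower gap than that of LOX4.

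**Figure D4:**
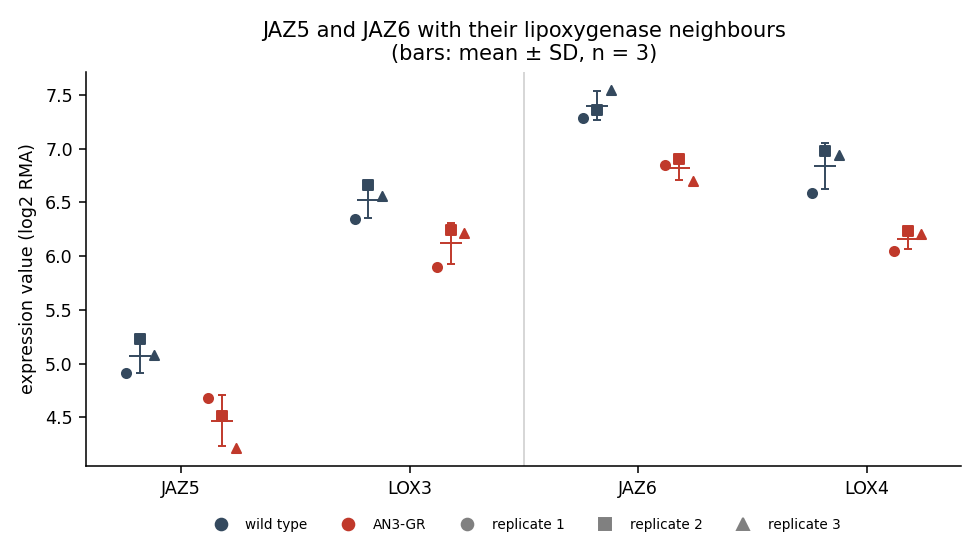
Expression values (log2 RMA) of JAZ5 and JAZ6 and of the lipoxygenase genes near them, LOX3 and LOX4, on each array, with bars for the mean ± SD of 3 arrays. In each of the 4 genes all AN3-GR arrays (red) lie below all wild type arrays (dark blue), against 9.4% of all probe sets.

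Jasmonate breakdown and output genes gave weaker signals. All 9 measured genes of breakdown had negative changes, against 54.2% of all probe sets, and 7 had them after quantile normalization. The median of the 9 was −0.14. Of these 0 were called with the block, against 6.63% of all probe sets, or without it, against 0.789%. Of the 9, 6 had a mean under the lower quartile. The largest changes were JRG21 at −0.31, CYP94B3, which hydroxylates the active hormone, at −0.30, and the locus AT5G05600 at −0.27. Of 9 output genes all had negative changes, against 54.2% of all probe sets, and 7 had them after quantile normalization. The median of the 9 was −0.22, and 0 were called, against 0.789% of all probe sets. A mean under the lower quartile was found in 3. Those 3 were TAT3 at −0.031, PDF1.2 at −0.0097 and the factor ANAC019. CORI3, a jasmonate-induced cystine lyase, had values of 5.96, 6.58 and 5.18 in AN3-GR against 7.53, 7.83 and 6.97 in wild type, a log2 change of −1.54 (SE 0.33; adjusted p of 0.0673 from limma, or of 0.0093 with the block). The chlorophyllase gene CLH1 at −0.41 was the other output gene called with the block (adjusted p = 0.0364 in limma). Its change moved to −0.27 when AN3-GR replicate 3 was left out. ANAC019, with its weak signal, was at −0.32, and at −0.22 with quantile normalization. CORI3 also passed in limma without wild type replicate 3 (change −1.77, adjusted p = 0.0327).

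**Figure D5:**
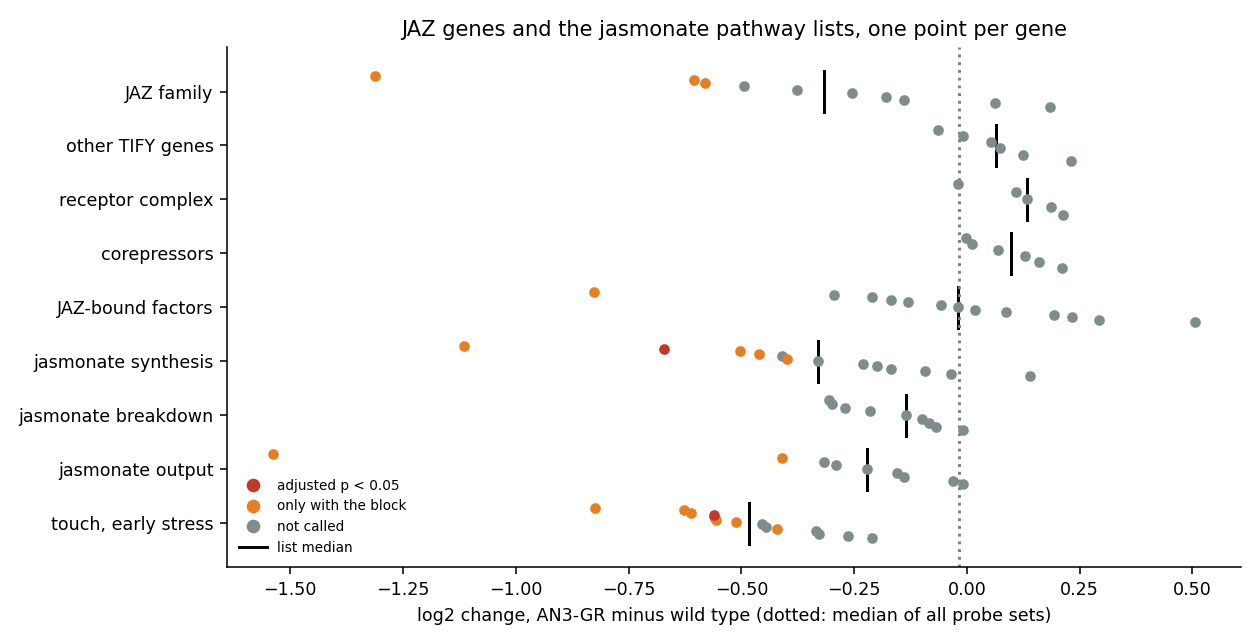
Log2 change of each measured gene, AN3-GR minus wild type, in the JAZ family, the other jasmonate lists and the touch and early stress list, with black bars for list medians and a dotted line for the median of all probe sets, −0.019. The medians of the JAZ family, synthesis, breakdown, output and stress lists lie left of the line, at −0.32, −0.33, −0.14, −0.22 and −0.48, while single genes such as JAZ10 and ACX1 lie right of it. The receptor and corepressor lists have medians of 0.13 and 0.10.

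Among genes that answer touch and handling 1 passed the test, where 0.229% of all probe sets were called lower. All 14 touch and early stress genes were measured, and the change was negative in each, against 54.2% of all probe sets. The median was −0.48. ERF11, an ethylene-response factor that acts early in stress, fell by 0.56 (adjusted p = 0.0407 from limma after Benjamini-Hochberg adjustment), a call that held when wild type replicate 3 was left out (0.0355) and was lost when any other single array was (0.0769 to 0.232). With the replicate block 8 of the 14 were called, all lower, where 3.03% of all probe sets were. They were ERF11, WRKY33 at −0.83, TCH3 at −0.63, WRKY40 at −0.61, ZAT10 at −0.56, CBF1 at −0.56, TCH4 at −0.51 and ZAT12 at −0.42. The change of TCH3 was −1.04 when AN3-GR replicate 3 was left out, −0.40 when AN3-GR replicate 2 was, and −0.29 when wild type replicate 3 was. Without AN3-GR replicate 1 that of ZAT10 was −0.33 and that of TCH4 −0.33. The summed log2 values of all 14 genes ranged from 107.2 to 115.5 over the AN3-GR arrays and from 114.4 to 120.2 over the wild type arrays. The leaf marker CA1 was lower too, at −0.43 (limma adjusted p of 0.103, or of 0.0412 with the block). The part of handling in the JAZ values was not tested.

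By array, the median of the JAZ family was set beside that of the stress list. The median deviation of the JAZ genes from their own means was −0.088, −0.21 and −0.16 on AN3-GR replicates 1 to 3, and 0.076, 0.21 and 0.24 on the wild type replicates. For the stress genes it was −0.55, −0.25 and 0.088 on the AN3-GR arrays and −0.017, 0.36 and 0.34 on the wild type arrays. On AN3-GR replicate 3 the median was above 0 for the stress list and below 0 for the JAZ family. Single genes differed from these medians. JAZ1, like TCH3 and WRKY33 of the stress list, was highest on replicate 3 within each genotype, while JAZ5 and JAZ6 were lowest on AN3-GR replicate 3. The relation between the lists was not tested.

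The profiles most like that of JAZ1 over the 6 arrays were sought among the 10714 probe sets with a mean at or above the median, by the root mean square difference between values after each gene's own mean was removed. The nearest was DIR1, which carries signals of systemic acquired resistance, at 0.24 on the log2 scale, followed by AT4G24380 at 0.30, WRKY70, a factor of salicylate and jasmonate defence, at 0.31, and AT5G19240 and WRKY33 at 0.32 each. Their log2 changes lay between −0.76 and −1.02. The distance includes the difference between genotypes, so the changes of the neighbours follow in part from the selection, here and for JAZ10. For JAZ10 the nearest were AT5G63220 at 0.051, the SUMO ligase gene HPY2 at 0.062, and AT5G51980, AT3G21465 and SKP2A at 0.076 to 0.077, with changes between 0.14 and 0.21. WRKY33 stood in the stress list as well as among the neighbours of JAZ1. Within the family, JAZ2 and JAZ12 had the smallest distance, 0.12, followed by JAZ5 with JAZ6 and with JAZ8, both 0.14 apart. This distance is small wherever both genes change little, as JAZ2 and JAZ12 did, at −0.14 and −0.25.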

How the data were processed

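Expression was measured on 6 Affymetrix ATH1 arrays, 3 per genotype, grouped by the genotype and repeat number in the labels. The deposited values are log2 expression values, and per the submitters' processing notes the authors used RMA and limma, with no versions given. RMA corrects background, gives the probe values of all arrays 1 distribution and then summarises the probes of a set. It thus reduces shifts shared by all genes and narrows the gaps between weak signals. The summarised values did not share 1 distribution, with array medians from 6.22 to 6.32. Each of the 21428 probe sets is named by a gene locus, per the file headers. Names came from the RefSeq gene table of assembly TAIR10.1, which held 21231 of the loci. Of the 10 JAZ probe sets, 0 had values identical to another.

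No filter or rescaling was applied to the deposited log2 values. AN3-GR was set against wild type in limma 3.58.1, run in R 4.3.3 (lmFit and eBayes, 1 prior variance, all 6 arrays, no covariate, two-sided), with Benjamini-Hochberg adjustment over all probe sets and a threshold of 0.05. The labels call the arrays biological repeats. Same-numbered arrays were checked for shared deviations by the correlation, across probe sets, of each array's differences from the group means. It was 0.161, 0.416 and 0.494 for replicates 1, 2 and 3, each above a bound of 0.1, so the block values are given beside results whose call they change. No label says what a shared number stands for.

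The JAZ genes and the pathway lists were chosen with earlier results of these data known. Named genes were all JAZ members, list members called with or without the block, the 3 largest absolute changes in each pathway list, AN3, COI1, MYC2, NINJA and PPD2, and the 5 profiles nearest to JAZ1 and to JAZ10. The fits were tested on simulated data in which arrays varied independently. Those data held no deviation shared by same-numbered arrays, so they cannot show how the block fit behaves with such deviations. Alternatives were quantile normalization, centring on array medians, filters on weak probe sets, an intensity trend with robust prior, array weights, the replicate block, and leaving out arrays. Sequences were not analysed here.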

Additional observations from a re-analysis of the deposited data

How the results depend on the processing

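The direction of 9 of the 10 JAZ genes was the same under all 16 alternatives, or under those in which a weak gene was kept, with JAZ10 positive and the others negative. JAZ7, at 0.061 as reported, ranged from −0.055 to 0.18 with arrays left out, and was negative without AN3-GR replicate 1, without wild type replicate 3 and without both arrays of replicate 1. ZML2 ranged from −0.066 to 0.18 and JAZ4 from −0.082 to 0.13, and JAZ4 was at 0.080 with quantile normalization. Calls depended more on the setting. The number of JAZ genes called lower was 0 as reported, 2 with quantile normalization, 2 with arrays centred on their medians, 1 and 2 with the weakest 25% and 50% of probe sets left out, 2 with an intensity trend and robust prior, 3 with array weights and 3 with the replicate block. It was 0 to 2 when single arrays or both arrays of a number were left out. The share of all probe sets called lower was 0.229% as reported and 3.03% with the replicate block. That share was not computed for the other settings, so no conclusion about the family or the lists is drawn from the counts there. JAZ1 and JAZ6 were each called in 8 of the 16 alternatives and JAZ5 in 2. The number of probe sets called was 169 as reported, 564 with the weakest 50% left out, 558 with the trend, 1132 with array weights, 1420 with the replicate block, and 4 to 779 with arrays left out. With arrays left out the family's median change ranged from −0.40 to −0.27, that of synthesis genes from −0.43 to −0.21, of output genes from −0.30 to −0.14, of corepressors from 0.019 to 0.15 and of other TIFY genes from 0.040 to 0.11. Synthesis genes and stress genes called lower numbered 0 to 1 each, output genes 0 to 1, and JAZ-bound factors 0 to 1 lower and 0 to 1 higher. With the replicate block 5 synthesis, 1 JAZ-bound, 2 output and 8 stress genes were called lower. Of output genes, 1 was called lower with the weakest 50% left out and 1 with array weights. Leaving out the weakest 25% moved the breakdown median to −0.27, and leaving out the weakest 50% moved that of JAZ-bound factors to −0.13 and of output genes to −0.41, since fewer genes were kept, and it left no breakdown gene. The cause of the other differences between settings was not tested. With 3 arrays per group and no background measure beside the values, precision is limited.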
